A study of Homo sapiens with 6 samples.

Results

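The genes described here are the snoRNA host genes that carry an SNHG symbol (small nucleolar RNA host gene, followed by a number), together with GAS5, ZFAS1, EPB41L4A-AS1 and DANCR. They were chosen by symbol from the deposited gene table, with the condition that the raw counts of a gene sum to 10 or more over the 6 samples. This gave 29 of the 33981 genes in the table, 25 with an SNHG symbol and the other 4 named above. SNHG22, with 9 counts in all, and SNHG27, with 1 count, matched by symbol and were left out by the condition on counts. The study asked what the loss of the transcription factor NFIC changes in leukemia cells, and sequenced THP-1 cells, a monocytic line grown from a patient with acute leukemia. The line was transduced with lentivirus that encodes GFP and either a scrambled shRNA (3 samples) or the shRNA against NFIC that the study calls sh494 (3 samples), and on day 4 the cells with GFP were sorted and their RNA sequenced in bulk. Both groups therefore carried a vector and passed the same sort. The methods of the study name a vector with GFP only as control. Its results and the labels name a scrambled shRNA, which is the name kept here. All samples come from the same cell line, and nothing states that they were separate cultures, so p-values measure the spread between these samples, which may be technical.

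A snoRNA host gene is transcribed by RNA polymerase II, and its introns contain small nucleolar RNAs. After splicing, the intron is opened by a debranching enzyme and trimmed by exonucleases down to the snoRNA, which the core proteins of the particle protect. Box C/D snoRNAs guide ribose methylation and box H/ACA snoRNAs guide pseudouridylation of ribosomal RNA, and scaRNAs guide the same reactions on spliceosomal RNAs in Cajal bodies. The spliced exons of SNHG genes encode no conserved protein. Many of them start with a pyrimidine run like that of ribosomal protein mRNAs, called a terminal oligopyrimidine (TOP) start, and are kept low by nonsense-mediated decay when ribosomes engage them. Bulk mRNA libraries report mainly the spliced host RNA and hold few reads of mature snoRNAs.

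The products of 4 hosts are printed first, because they show the kinds of RNA the group makes. The hosts are the 3 highest members per unit of the authors' gene length and a member with one of the largest differences. The sequences were read from GRCh38 at the RefSeq positions. In the box C/D snoRNAs capitals mark the C box near the 5′ end and the D box near the 3′ end, and in the box H/ACA snoRNA they mark the ACA element 3 bases before the 3′ end. SNORD44 and SNORD48 are known as reference RNAs in microRNA assays.
SNORD48 (chr6:31835263-31835326, plus strand): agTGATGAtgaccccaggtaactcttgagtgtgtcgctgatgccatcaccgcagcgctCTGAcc
SNORD49B (chr17:16439509-16439556, plus strand): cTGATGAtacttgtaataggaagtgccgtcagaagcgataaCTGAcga
SNORD44 (chr1:173865968-173866028, minus strand): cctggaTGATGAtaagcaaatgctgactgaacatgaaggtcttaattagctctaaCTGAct
SNORA26 (chr4:52713249-52713370, plus strand): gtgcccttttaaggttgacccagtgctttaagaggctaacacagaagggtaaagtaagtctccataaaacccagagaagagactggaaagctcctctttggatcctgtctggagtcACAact
SNORD48 lies in an intron of SNHG32, SNORD49B in SNHG29, SNORD44 in GAS5 and SNORA26 in DANCR. Over the spans of all members RefSeq lists 146 snoRNA genes, of which 83 lie in SNHG14, 11 in GAS5 and 8 in SNHG1. None was listed within SNHG28, which is a member by its symbol alone.

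Total counts ranged from 20369543 to 24809720 per sample, where the detection limit used here, 3 counts, equals 0.121 to 0.147 CPM (read counts relative to library size, which in the values of genes below is also adjusted by the TMM method). This limit covers counting error only. NFIC, the target, was at 42.1, 41.4 and 42.2 CPM in the scrambled samples and 19.4, 22.3 and 21.4 CPM in the NFIC shRNA samples (log2 fold change -0.99, SE 0.072, adjusted p = 3.73e-09). MYC, a transcription factor known to act on ribosome production genes, was at 217, 233 and 223 CPM in the scrambled samples and 89.1, 91.8 and 76.4 CPM in the NFIC shRNA samples (log2 fold change -1.39, adjusted p = 2.37e-11). Adjusted p-values here come from edgeR's quasi-likelihood test on 3 against 3 samples, with Benjamini-Hochberg adjustment over the 19182 genes tested, and a gene is called at an adjusted p under 0.05. For 1 gene alone, permuting these samples exactly gives no two-sided p below 0.1. All 8 monocytic markers examined were detected in every sample, from 2.79 FPKM for CD33 to 604 FPKM for LYZ. LYZ (284 to 358 in the scrambled and 479 to 604 FPKM in the NFIC shRNA samples), ITGAM (8.71 to 8.79 and 16.2 to 20.1 FPKM), CD14 (3.98 to 4.83 and 6.23 to 7.14 FPKM), PTPRC (17.6 to 19.3 and 19.8 to 21.3 FPKM) and SPI1 (77.9 to 82.3 and 83.0 to 91.2 FPKM) were higher with NFIC shRNA without overlap of the groups. CSF1R (40.04 to 43.5 and 25.2 to 31.1 FPKM) and CD33 (5.17 to 5.86 and 2.79 to 3.02 FPKM) were lower without overlap, and MPO overlapped (13.8 to 19.3 and 12.8 to 14.5 FPKM). Their part in the results below was not tested. In the same samples the T cell, erythroid and fibroblast markers CD3D, HBA1, HBB, COL1A2 and DCN were at or near 0. The highest marker of other cell types was the B cell gene CD79A, at up to 2.03 FPKM. The libraries of scrambled replicate 2 and NFIC shRNA replicate 3 stood apart from the others of their groups on the second principal component, and values without them are given with the limits at the end.

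Host genes of the group were lower with NFIC shRNA nearly throughout. Of the 28 members tested, 23 were lower, none was higher and 5 were not called, that is 82.1% lower, where 30.3% of all genes tested were lower and 29.6% were higher, 59.9% in either direction. The median log2 fold change of the members was -0.80, against -0.011 for all genes tested and -0.012 for the 3689 other lncRNA genes tested, of which 904 (24.5%) were lower. In 10 members (35.7%) the fall exceeded 1 on the log2 scale, as it did in 8.57% of all genes. The groups did not overlap in 26 of the 28, with every NFIC shRNA sample below every scrambled sample, and 33.0% of all genes showed this. In bulk RNA these values cannot tell less host RNA per cell from fewer cells that express it.

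**Figure D1:**
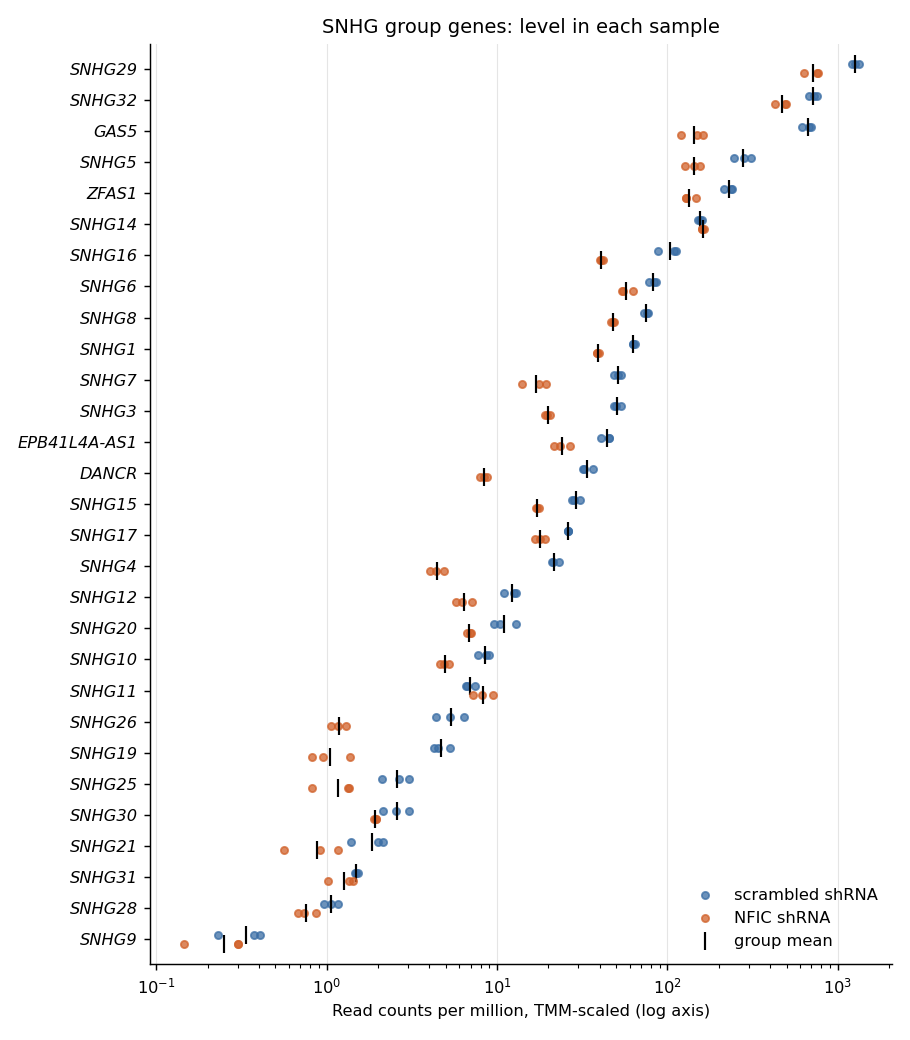
Level of the 29 genes in each of the 6 samples, in TMM-scaled CPM on a log axis, with the mean of each group as a bar. The NFIC shRNA samples lie to the left of the scrambled samples in nearly all rows, by the widest gaps for SNHG4, GAS5, SNHG26, SNHG19 and DANCR, while the samples of SNHG14 lie close together.

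The 3 hosts of both kinds of snoRNA were lower, where 82.1% of the group and 30.3% of all genes tested were lower. Among these 3 the fall was largest in GAS5. GAS5, named for its rise in growth-arrested cells, is annotated on the minus strand at chr1:173858559-173868882 of GRCh38 with 12 exons in its canonical transcript. It was at 696, 615 and 681 CPM in the scrambled samples and 149.6, 162 and 121 CPM in the NFIC shRNA samples (log2 fold change -2.20, SE 0.095, adjusted p = 3.68e-09), which is 4.61-fold lower. The groups did not overlap, and NFIC shRNA replicate 3 was lowest. SNHG12 was at 12.5, 11.1 and 12.9 CPM in the scrambled samples and 6.26, 7.15 and 5.76 CPM in the NFIC shRNA samples (log2 fold change -0.92, SE 0.12, adjusted p = 2.95e-06). SNHG25, a short gene with few reads, was at 3.05, 2.64 and 2.10 CPM in the scrambled samples and 0.825, 1.34 and 1.34 CPM in the NFIC shRNA samples (log2 fold change -1.14, SE 0.24, adjusted p = 0.000544).

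Among hosts of box C/D snoRNAs only, 9 of the 11 tested (81.8%) were lower and the median log2 fold change was -0.77. This share is close to the 82.1% of the whole group, where 30.3% of all genes were lower. The classes of hosts were not tested against each other. SNHG29, with 3 snoRNAs in its introns, was the member with most reads (chr17:16438767-16480249, plus strand) and was at 1325, 1215 and 1257 CPM in the scrambled samples and 750.1, 762 and 629 CPM in the NFIC shRNA samples (log2 fold change -0.83, SE 0.066, adjusted p = 2.19e-08). SNHG32 (chr6:31834608-31839766, plus strand), which hosts SNORD48 and SNORD52, was at 752, 673 and 728 CPM in the scrambled samples and 490.1, 494 and 429 CPM in the NFIC shRNA samples (log2 fold change -0.61, SE 0.06, adjusted p = 1.6e-07). Neither pair of groups overlapped, and in both genes the lowest of the 6 samples was NFIC shRNA replicate 3.

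SNHG5, the host of the SNORD50 pair, was at 308, 246 and 283 CPM in the scrambled samples and 144, 156 and 127 CPM in the NFIC shRNA samples (log2 fold change -0.97, SE 0.086, adjusted p = 9.99e-07). ZFAS1, which carries 3 SNORD12 genes, was at 235, 215 and 239 CPM in the scrambled samples and 128, 147 and 128 CPM in the NFIC shRNA samples (log2 fold change -0.77, SE 0.061, adjusted p = 1.13e-08). SNHG16 (chr17:76557727-76670985, plus strand), with 3 SNORD1 genes, was at 87.7, 113 and 109 CPM in the scrambled samples and 41.6, 40.9 and 40.4 CPM in the NFIC shRNA samples (log2 fold change -1.34, SE 0.081, adjusted p = 1.21e-09). Scrambled replicate 1 was the lowest control for SNHG16 and was still above all 3 NFIC shRNA samples.

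SNHG1, the host of 8 box C/D snoRNAs, was at 64.5, 62.6 and 62.4 CPM in the scrambled samples and 39.8, 38.8 and 38.8 CPM in the NFIC shRNA samples (log2 fold change -0.69, SE 0.058, adjusted p = 2.17e-08). SNHG6, the host of SNORD87, was at 83.9, 77.9 and 85.8 CPM in the scrambled samples and 54.96, 63.1 and 54.05 CPM in the NFIC shRNA samples (log2 fold change -0.52, SE 0.066, adjusted p = 2.88e-06). SNHG1 was among the members that varied least within a group, and SNHG6 had the smallest fall of those called. The other lower C/D hosts had few reads. SNHG26 was at 5.32, 6.42 and 4.39 CPM in the scrambled samples and 1.07, 1.29 and 1.17 CPM in the NFIC shRNA samples (log2 fold change -2.19, SE 0.20, adjusted p = 5.96e-08). SNHG19, the host of SNORD60, was at 5.27, 4.27 and 4.48 CPM in the scrambled samples and 0.825, 1.38 and 0.953 CPM in the NFIC shRNA samples (log2 fold change -2.13, SE 0.21, adjusted p = 1.45e-07). Both differences were large relative to their errors although each rested on fewer than 10 CPM. SNHG19 is a short gene, and per unit of the authors' gene length it was at place 10 of the 29 in the scrambled samples.

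Hosts of box H/ACA snoRNAs only held the largest fall of the group. Of 10 tested, 8 were lower (80%, against 82.1% of the group and 30.3% of all genes), with a median of -0.81. SNHG4 (chr5:139274102-139284899, plus strand), the host of SNORA74A, was at 22.98, 21.3 and 20.9 CPM in the scrambled samples and 4.90, 4.35 and 4.03 CPM in the NFIC shRNA samples (log2 fold change -2.30, SE 0.11, adjusted p = 2.22e-11), 4.91-fold lower. DANCR (chr4:52712325-52723623, plus strand), which carries SNORA26 and is named for keeping epidermal progenitors undifferentiated, was at 31.9, 36.4 and 32.2 CPM in the scrambled samples and 8.73, 8.36 and 7.97 CPM in the NFIC shRNA samples (log2 fold change -2.01, SE 0.089, adjusted p = 1.5e-11). In both genes the 6 samples formed well separated groups, with a spread inside either that was small beside the gap between them.

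SNHG7, the host of the SNORA17 pair, was at 53.7, 48.8 and 51.3 CPM in the scrambled samples and 17.7, 19.4 and 13.96 CPM in the NFIC shRNA samples (log2 fold change -1.59, SE 0.095, adjusted p = 6.74e-10). SNHG3, whose SNORA73 pair takes part in early cleavage of the ribosomal RNA precursor, was at 49.6, 53.6 and 48.4 CPM in the scrambled samples and 19.7, 19.2 and 20.4 CPM in the NFIC shRNA samples (log2 fold change -1.35, SE 0.07, adjusted p = 7.58e-11). EPB41L4A-AS1, the host of SNORA13, was at 45.5, 40.9 and 45.4 CPM in the scrambled samples and 23.4, 26.7 and 21.6 CPM in the NFIC shRNA samples (log2 fold change -0.88, SE 0.081, adjusted p = 6.7e-08). In SNHG7 and EPB41L4A-AS1 the NFIC shRNA samples spread more than the controls, and in SNHG3 less.

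SNHG15 was at 30.7, 27.7 and 28.2 CPM in the scrambled samples and 17.1, 17.7 and 16.99 CPM in the NFIC shRNA samples (log2 fold change -0.74, SE 0.077, adjusted p = 2.9e-07). SNHG8 was at 76.2, 72.98 and 76.7 CPM in the scrambled samples and 47.7, 46.8 and 48.8 CPM in the NFIC shRNA samples (log2 fold change -0.66, SE 0.057, adjusted p = 2.84e-08). SNHG17 was at 26.2, 25.9 and 26.02 CPM in the scrambled samples and 19.2, 17.97 and 16.7 CPM in the NFIC shRNA samples (log2 fold change -0.54, SE 0.079, adjusted p = 1.56e-05). The 3 hosts carry SNORA9, SNORA24 and SNORA71 genes in that order, and their log2 fold changes lay between -0.74 and -0.54.

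All 3 hosts of scaRNAs were lower, where 82.1% of the group and 30.3% of all genes tested were lower. SNHG21, the host of SCARNA15, was at 1.99, 1.38 and 2.15 CPM in the scrambled samples and 1.16, 0.560 and 0.910 CPM in the NFIC shRNA samples (log2 fold change -1.07, SE 0.29, adjusted p = 0.0046). SNHG10, the host of SCARNA13, went from 8.46 ± 0.668 to 4.92 ± 0.297 CPM (SD, n = 3; log2 fold change -0.78, adjusted p = 4.18e-05). SNHG20, the host of SCARNA16, went from 10.97 ± 1.76 to 6.87 ± 0.164 CPM (SD, n = 3; log2 fold change -0.67, adjusted p = 0.000173). The 3 levels were low, and that of SNHG21 was the least precise.

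**Figure D2:**
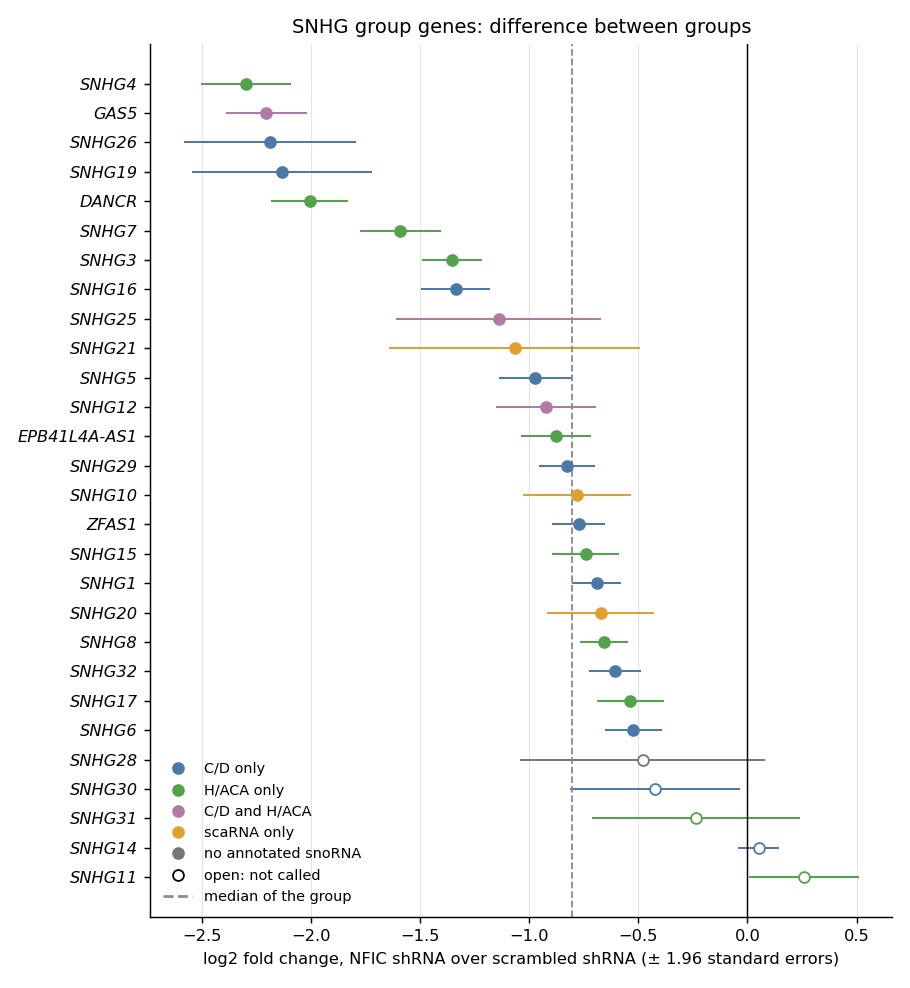
log2 fold change of the 28 genes tested, NFIC shRNA over scrambled shRNA, with bars for the 95% interval and colours for the kind of snoRNA hosted. Filled points are the 23 genes called lower, from -2.30 in SNHG4 to -0.52 in SNHG6, the 5 open points are not called, and the dashed line marks the group median of -0.80.

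The members that were not called include the host of the most snoRNA genes. SNHG14 (chr15:24978583-25420336, plus strand) is the long RNA of the imprinted Prader-Willi region and holds 83 of the 146 snoRNA genes. It was at 159, 152 and 156 CPM in the scrambled samples and 165, 160.3 and 159 CPM in the NFIC shRNA samples (log2 fold change 0.052, SE 0.048, adjusted p = 0.364), with a 95% interval of the log2 fold change from -0.042 to 0.15. Its reads are spread over a long gene, and per unit of the authors' gene length it was at place 25 of the 29 in the scrambled samples. The lower end of that interval is above the log2 fold change of every member called lower. SNHG11 was at 6.61, 7.44 and 6.63 CPM in the scrambled samples and 9.46, 8.19 and 7.19 CPM in the NFIC shRNA samples (log2 fold change 0.26, SE 0.13, adjusted p = 0.0911), and the groups overlapped. Without NFIC shRNA replicate 3 SNHG11 was called higher (log2 fold change 0.35, adjusted p = 0.0273), and without NFIC shRNA replicate 1 its log2 fold change was 0.16 (adjusted p = 0.352). The remaining 3 had low counts and wide intervals, from -1.04 to 0.081 for SNHG28, from -0.81 to -0.034 for SNHG30 and from -0.71 to 0.24 for SNHG31, none of which excludes a fall of the size of SNHG6. These intervals are not adjusted for the number of genes. SNHG30 was called lower without scrambled replicate 3 (log2 fold change -0.54, adjusted p = 0.0474), and without scrambled replicate 1 its log2 fold change was -0.30 (adjusted p = 0.271). SNHG9 was too low to be tested, with 5, 10 and 8 counts in the scrambled samples and 3, 7 and 7 counts in the NFIC shRNA samples.

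Per unit of the gene length used by the authors the members spanned a wide range, and a few made up most of the RNA. The authors' FPKM are fragments per length of gene and depth of library, and an order of genes by them depends on that length. It differs from the canonical transcript, with 7176 against 443 bases for SNHG29 and 4842 against 768 for GAS5. For SNHG32 it is 1801 against 1053 bases and for DANCR 2328 against 3959. In these FPKM SNHG32 was highest in the scrambled samples at 394 ± 21.8 (SD, n = 3). SNHG29 at 174 ± 7.30, GAS5 at 135 ± 8.70, SNHG6 at 65.4 ± 3.30 and ZFAS1 at 27.3 ± 1.495 FPKM came next. These 5 were separate from each other in all 3 scrambled samples. SNHG5 and SNHG16, DANCR and SNHG19, and SNHG19 and SNHG3 were neighbours in this order whose scrambled samples overlapped. With NFIC shRNA, SNHG32 was at 261 ± 18.5 and SNHG29 at 99.3 ± 9.66 FPKM and stayed highest, while GAS5, at 29.7 ± 4.19 FPKM, moved from place 3 to place 4, behind SNHG6 at 45.9 ± 3.90 FPKM. SNHG4 moved from place 17 to 23 and SNHG14 from place 25 to 20 of the 29.

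Summed over the group, the level was 4109, 3755 and 3987 CPM in the scrambled samples and 2157, 2220 and 1911 CPM in the NFIC shRNA samples, a log2 ratio of the means of -0.91. The share of GAS5 in this sum went from between 16.4% and 17.1% to between 6.32% and 7.29%. The summed level of NFIC shRNA replicate 3 was the lowest of its group, and of the 17 members with a mean of at least 10 CPM it was the lowest NFIC shRNA sample in 14. Scrambled replicate 2 was the lowest control in 12 of the 17. With both libraries left out, 23 members were still called lower. Across the 28 members, which share all 6 libraries, the correlation of the log2 fold change was near 0 with the mean CPM (Pearson r 0.0071, Spearman rho -0.053) and low with the FPKM in the scrambled samples (r -0.26, rho -0.33).

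Some snoRNA genes have rows of their own in the table, and of the 34 tested 14 were lower and 20 were not called. Of the RefSeq snoRNAs inside members, 81 matched a row of the table and 34, from 17 hosts, had enough counts to be tested. The share lower was 41.2%, against 30.3% of all genes tested. Outside SNHG14, 14 of 27 (51.9%) were lower, none was higher, and all 27 had negative log2 fold changes, with a median of -0.70. Most of these genes had low counts. SNORD49B in SNHG29, printed above, was the best covered, with 625, 558 and 603 counts in the scrambled samples and 234, 335 and 255 counts in the NFIC shRNA samples (log2 fold change -1.11, SE 0.11, adjusted p = 4.27e-07). SNORD48 in SNHG32 was at 142, 160 and 111 counts in the scrambled samples and 59, 70 and 44 counts in the NFIC shRNA samples (log2 fold change -1.23, SE 0.18, adjusted p = 1.27e-05). SNORD22 in SNHG1 was at 144, 166 and 128 counts in the scrambled samples and 94, 95 and 86 counts in the NFIC shRNA samples (log2 fold change -0.65, SE 0.14, adjusted p = 0.000648). In these 3 genes every NFIC shRNA count was below every scrambled count.

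SNORA24 in SNHG8 had the largest fall, at 30, 42 and 32 counts in the scrambled samples and 5, 9 and 6 counts in the NFIC shRNA samples (log2 fold change -2.34, SE 0.33, adjusted p = 9.59e-06), while its host differed by -0.66 on the log2 scale. Other H/ACA genes that were lower were SNORA73A (-1.67) and SNORA73B (-1.21) of SNHG3, SNORA9 (-1.502) of SNHG15 and SNORA44 (-1.33) of SNHG12, all as log2 fold changes. Within SNHG1, SNORD30 was lower (log2 fold change -1.17, SE 0.38, adjusted p = 0.0128) and SNORD27 was not called (log2 fold change -0.069, SE 0.27, adjusted p = 0.839). The other SNHG1 snoRNA genes tested lay between them, and no gene was tested against another. The 7 snoRNA genes tested in SNHG14 were not called, with log2 fold changes from -0.092 to 0.58. The snoRNA genes of GAS5 were not among the rows matched and were not analysed here. Reads on such rows can come from the snoRNA, from unspliced host RNA or from a host exon, and 31 of the 34 genes tested touch an annotated exon of the host, so their values are not independent of the host's.

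**Figure D3:**
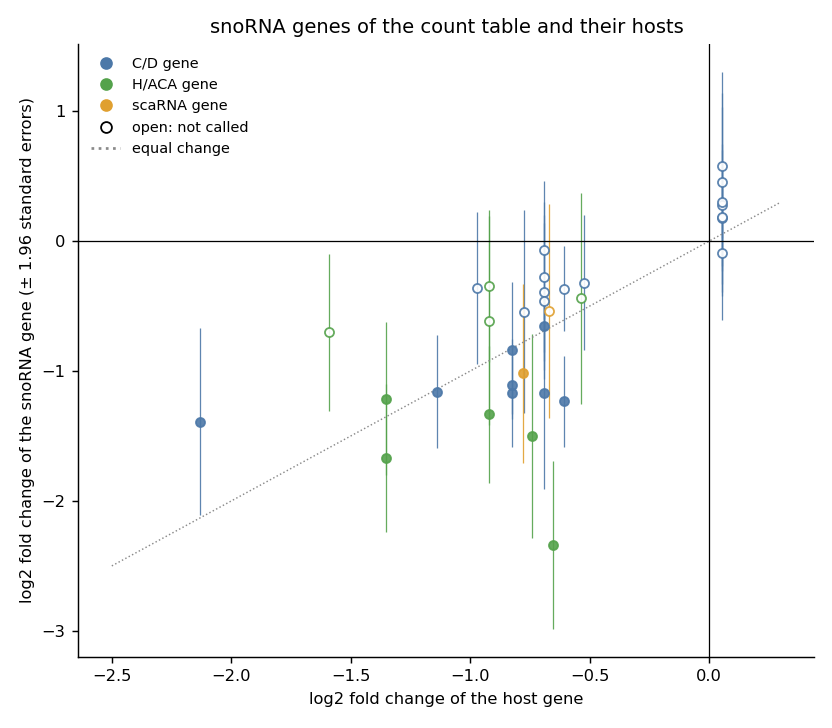
log2 fold change of the 34 snoRNA genes tested (vertical axis, with bars for the 95% interval) against that of the host gene (horizontal axis). Outside SNHG14, whose 7 genes stand in the column right of 0, all 27 points lie below 0, 14 of them called lower (filled), and the dotted line marks equal change.

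Many members share exon bases or a start region with another gene, and the values of these neighbours are given beside them. Strand was not stated for the counting and the kit named in the labels does not itself give it, so reads from overlapping genes could not be told apart. Of the 29 members, 21 share exon bases with another counted gene other than a snoRNA gene. The 7 members tested without such overlap were SNHG19, SNHG25, SNHG15, SNHG1, SNHG17, SNHG31 and SNHG11. Of these, 5 were lower (71.4%), with a median of -0.69 over the 7. This selection was made after the data were seen. Of the 21 members with such overlap 18 were lower (85.7%), with a median of -0.88. The share lower of all genes tested was 30.3%. The members with and without overlap were not tested against each other.

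Genes that start on the other strand within 1000 bases did not always move with the member. ZBTB37, a zinc-finger gene that starts 800 bases from GAS5, was at 33.1, 27.8 and 34.6 CPM in the scrambled samples and 36.5, 39.5 and 37.4 CPM in the NFIC shRNA samples (log2 fold change 0.25, SE 0.08, adjusted p = 0.0122) and was higher where GAS5 was lower. SLC3A2, the heavy chain of amino acid transporters, starts 51 bases from SNHG1 and was lower (from 203, 169 and 194 CPM to 156, 147 and 128 CPM, log2 fold change -0.39, SE 0.077, adjusted p = 0.000517). TRAF7, a ubiquitin ligase that starts 293 bases from SNHG19, was lower (from 109.9 ± 0.879 to 54.4 ± 1.04 CPM, SD, n = 3, log2 fold change -1.01, SE 0.052, adjusted p = 7.33e-11).

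BARD1, the partner of BRCA1, starts 498 bases from SNHG31 and was higher (log2 fold change 0.49, SE 0.09, adjusted p = 0.000159), with SNHG31 not called. RPS2, a ribosomal protein gene that starts 54 bases from SNHG9, was lower (from 1955, 1947 and 1917 CPM to 841, 911 and 853 CPM, log2 fold change -1.16, SE 0.049, adjusted p = 8.73e-12). ZNFX1, which starts 248 bases from ZFAS1 and shares 249 exon bases with it, was higher (from 57.8, 55.9 and 64.03 CPM to 72.2, 68.9 and 69.4 CPM, log2 fold change 0.24, SE 0.062, adjusted p = 0.00247) where ZFAS1 was lower. Members and their divergent neighbours thus differed in direction in the pairs of GAS5 and ZFAS1 and both were lower in those of SNHG1 and SNHG19.

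SNHG4 and SNHG3 overlap coding genes on their own strand. MATR3, a nuclear matrix protein gene that shares 626 exon bases with SNHG4, was at 388, 436 and 419 CPM in the scrambled samples and 467, 435 and 484 CPM in the NFIC shRNA samples (log2 fold change 0.16, SE 0.056, adjusted p = 0.0213). RCC1, which shares 242 exon bases with SNHG3 and encodes the exchange factor of Ran, was lower (from 89.3, 100.1 and 85.99 CPM to 60.4, 54.8 and 66.6 CPM, log2 fold change -0.60, SE 0.073, adjusted p = 2.52e-06), by less than SNHG3. Rows that overlap a member can hold some of its reads and were not read as separate evidence. LRRC75A, opposite to SNHG29, was at 648, 614 and 640.1 CPM in the scrambled samples and 397, 386 and 331 CPM in the NFIC shRNA samples (log2 fold change -0.77, adjusted p = 1.36e-08). GAS5-AS1 (log2 fold change -1.66, adjusted p = 1.93e-10), LINC01618 at DANCR (log2 fold change -2.17, adjusted p = 3.68e-10), AL671762.1 at SNHG32 (log2 fold change -0.58, adjusted p = 1.47e-07) and AL049766.1 within ZFAS1 (log2 fold change -0.78, adjusted p = 7.97e-09) were lower too, as were AC104066.5 at DANCR (-2.12), AC015802.6 at SNHG16 (-1.502) and AL049766.3 within ZFAS1 (-0.76).

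The overlapping coding genes SIL1 at SNHG4 (log2 fold change -0.028, adjusted p = 0.751), GLRX5 at SNHG10 (log2 fold change -0.16, adjusted p = 0.1) and SEC14L1 at SNHG20 (log2 fold change 0.044, adjusted p = 0.555) were not called. TRNAU1AP at SNHG12 was higher (log2 fold change 0.43, adjusted p = 0.000386). Lower were DIPK1B at SNHG7 (log2 fold change -1.001, adjusted p = 2.28e-06), EPB41L4A at EPB41L4A-AS1 (log2 fold change -0.69, adjusted p = 0.000141), PRSS12 at SNHG8 (log2 fold change -0.30, adjusted p = 0.000237) and MCMDC2 at SNHG6 (log2 fold change -0.27, adjusted p = 0.00348). AL589666.1 at SNHG5 was not called (log2 fold change 0.12, adjusted p = 0.0896). At SNHG14, SNRPN (log2 fold change 0.21, adjusted p = 0.00171) and AC124312.1 (log2 fold change 0.20, adjusted p = 0.00452) were higher and UBE3A was not called (log2 fold change 0.084, adjusted p = 0.18).

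Start sequences were examined because a TOP start is a known feature of snoRNA hosts. A start was taken as TOP-like where the first base is a C followed by at least 4 pyrimidines, read on the strand of the gene. RefSeq promoter sequences were found for 25 members, of which 6 (24%) had a TOP-like start, against 4.07% of the 35116 promoters in the table. The windows below run from 20 bases before the start to 30 bases of transcript, on GRCh38.p14, and capitals mark the pyrimidine run at the start.
SNHG4 (chr5:139274081-139274130, plus strand): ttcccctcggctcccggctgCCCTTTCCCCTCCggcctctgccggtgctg
SNHG19 (chr16:2155329-2155378, minus strand): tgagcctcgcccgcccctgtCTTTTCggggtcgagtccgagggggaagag
SNHG12 (chr1:28581844-28581893, minus strand): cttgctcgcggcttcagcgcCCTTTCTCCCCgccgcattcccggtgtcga
SNHG5 (chr6:85678704-85678753, minus strand): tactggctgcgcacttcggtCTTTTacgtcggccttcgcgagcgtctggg
ZFAS1 (chr20:49278622-49278671, plus strand): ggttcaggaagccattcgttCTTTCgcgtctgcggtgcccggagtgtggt
SNHG32 (chr6:31834896-31834945, plus strand): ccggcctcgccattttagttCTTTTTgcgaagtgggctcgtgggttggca
The run is longest in SNHG4, with 13 bases, and in SNHG12, with 11. All 6 of these genes were lower, with a median log2 fold change of -0.95, and of the 19 members with another RefSeq start that were tested 14 were lower, with a median of -0.78. At the start of the GENCODE canonical transcript, a choice made after the data were seen, 4 of 28 members (14.3%) had a TOP-like start, namely GAS5, SNHG12, SNHG29 and ZFAS1, against 4.54% of 19092 genes. Only SNHG12 and ZFAS1 were TOP-like by both. Among all genes tested with a TOP-like GENCODE start, 404 of 866 (46.7%) were lower and 177 were higher. Of all genes tested 30.3% were lower and 29.6% were higher, and of the 28 members tested 82.1% were lower. The E-box CACGTG, the site of MYC and related factors, which reads the same on both strands, was found within 250 bases before to 50 after the RefSeq start of 2 of the 25 members (8%), SNHG7 and SNHG30, against 7.26% of all promoters. These letters are a description of the windows and say nothing on binding.

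Other snoRNA hosts were compared as a background for the group. Of 14 noncoding hosts outside it, 7 were lower and none was higher, with a median log2 fold change of -0.15. LINC01618 and AL671762.1 of this class overlap members, and TMEM161B-AS1 was lower as well (log2 fold change -0.54, adjusted p = 5.3e-05). Of 166 protein-coding hosts tested, 77 were lower (46.4%, against 30.3% of all genes) and 50 were higher, with a median of -0.084. Among them the 28 ribosomal protein genes were all lower (median -0.84), and the other 138 were split between 49 lower and 50 higher (median 0.019). The coding hosts with the smallest adjusted p were RPL12 (log2 fold change -1.45, adjusted p = 1.74e-12), RPL23A (log2 fold change -1.23, adjusted p = 3.14e-12) and PHB2 (log2 fold change -1.30, adjusted p = 3.6e-12), a prohibitin, among the lower, and USP32 (log2 fold change 0.68, adjusted p = 1.34e-08), PPP2R5A (log2 fold change 0.70, adjusted p = 2.48e-08) and TMEM167A (log2 fold change 0.68, adjusted p = 2.51e-08) among the higher. The medians of the SNHG group and of the ribosomal protein hosts were thus alike, and that of the other coding hosts was near 0.

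Among genes that make and stabilise snoRNPs, most core proteins were lower and the assembly factors were mixed. Beside the counts of these lists stand the shares of all genes tested, of which 30.3% were lower, 29.6% higher and 59.9% called in either direction. Of the 8 core proteins, 6 were lower and 1 was higher, with a median of -0.43. Fibrillarin (FBL), the methyltransferase of box C/D particles, was at 104, 110.0 and 103 CPM in the scrambled samples and 44.5, 50.9 and 42.4 CPM in the NFIC shRNA samples (log2 fold change -1.20, SE 0.067, adjusted p = 1.5e-10). SNU13 (log2 fold change -0.80, adjusted p = 1.21e-08) and NOP56 (log2 fold change -0.58, adjusted p = 7.65e-07), further C/D proteins, were lower, and NOP10, an H/ACA protein, was higher (log2 fold change 0.18, adjusted p = 0.0162). Of 12 assembly factors, 5 were lower and 2 were higher (median -0.091), a share called of 58.3% that is close to that of all genes, among them ZNHIT6 (log2 fold change -0.64, adjusted p = 9.81e-07), NOLC1 (log2 fold change -0.62, adjusted p = 1.52e-06) and NAF1 (log2 fold change -0.57, adjusted p = 5.22e-05) below and COIL, the protein of Cajal bodies (log2 fold change 0.54, adjusted p = 1.68e-06), and ZNHIT3 (log2 fold change 0.20, adjusted p = 0.0182) above.

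Genes that act on introns and on the spliced host RNA had log2 fold changes between -0.43 and 0.54. Of 6 genes for debranching and trimming, 4 were higher and 1 was lower (median 0.28), with the exonuclease XRN1 (log2 fold change 0.42, adjusted p = 7.01e-06), XRN2 (log2 fold change 0.28, adjusted p = 9.42e-05) and DIS3 (log2 fold change 0.29, adjusted p = 0.000287) higher and PARN lower (log2 fold change -0.24, adjusted p = 0.0124). Of 18 genes of nonsense-mediated decay, 4 were higher, 2 were lower and 12 were not called (median 0.055), a share called of 33.3% against 59.9% of all genes. The kinase SMG1 (log2 fold change 0.54, adjusted p = 8.1e-07) and PNRC2 (log2 fold change 0.24, adjusted p = 0.000612) were higher, and CASC3 (log2 fold change -0.32, adjusted p = 3.36e-05) and the helicase DHX34 (log2 fold change -0.43, adjusted p = 0.000186) were lower.

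Of 9 genes that control translation of TOP mRNAs, 5 were lower and 3 were higher (median -0.25), a share called of 88.9% against 59.9% of all genes. The translation repressors EIF4EBP1 (log2 fold change -1.19, adjusted p = 1.5e-10), EIF4EBP2 (log2 fold change -0.54, adjusted p = 3.11e-08) and LARP1 (log2 fold change -0.49, adjusted p = 8.42e-08), which binds TOP starts, were lower, and RPS6KB1 (log2 fold change 0.43, adjusted p = 8.99e-06), RPTOR (log2 fold change 0.37, adjusted p = 4.29e-05) and MTOR (log2 fold change 0.32, adjusted p = 0.000191) were higher. In total 33 of the 53 genes tested in these 5 lists were called (62.3%), close to the 59.9% of all genes. When a log2 fold change above 0.58 in size was also required, 6 were called. The share of all genes under that joint rule is not given here, so whether 6 is low cannot be told.

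**Figure D4:**
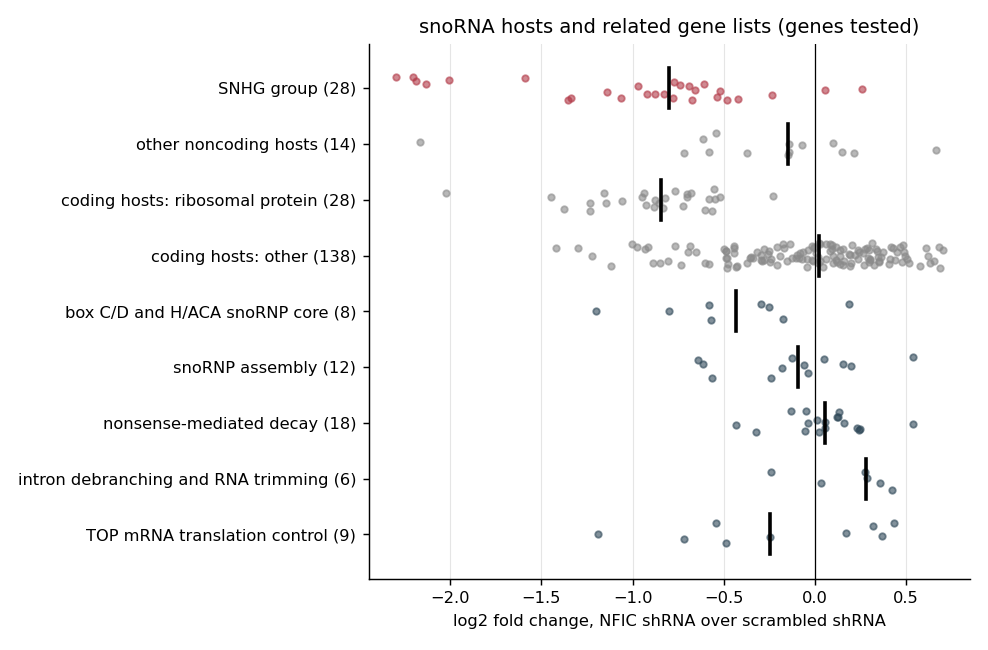
log2 fold change of each gene tested in the SNHG group, in other snoRNA hosts and in the 5 related lists, with the number of genes in brackets and the median as a bar. The SNHG group and the ribosomal protein hosts have medians of -0.80 and -0.84, and the other coding hosts are spread around 0.019.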

How the data were processed

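RNA of 6 samples of THP-1 cells (3 scrambled shRNA, 3 NFIC shRNA, day 4) was sequenced by the authors, who trimmed reads with Trim Galore, checked them with FastQC, mapped them to GRCh38 with STAR and counted them per Ensembl 96 gene with featureCounts. The deposited table holds whole-number counts per gene and sample, which the authors did not normalize, and these were the input of every test. It also holds a normalized signal (the counts divided by the authors' DESeq2 size factors) and FPKM, which the authors computed with gene length and used here only to compare levels between genes. The authors' own DESeq2 comparison was deposited too (log2 fold change, its error, test score, p-value and mean signal) and was not used.

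edgeR 4.0.16 (R 4.3.3) was run with its filter on low counts, TMM scaling and robust quasi-likelihood fits, with no covariate, and p was adjusted over the 19182 genes tested. The SE of a log2 fold change is its size over the square root of F, and 95% intervals are normal ones from that SE. CPM are TMM-scaled. The fit was tested on simulated counts in 3 draws, with 200 of the 19182 genes changed, and on average 5.35% of its calls were false. In the data 59.9% of genes were called, a setting that this simulation does not cover. Alternatives were DESeq2 1.42.0, limma 3.58.1 voom, other scalings and filters, each sample left out, a replicate block and stricter thresholds.

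The members, the lists and the alternatives were chosen with earlier results of these data known. Every member is named. Values in every sample are given for members with a mean of 10 CPM or more, or called with a log2 fold change above 1 in size. NFIC, MYC, neighbours, and up to 3 genes per list and direction with the smallest adjusted p are named too. Of the genes so chosen, 2 are not reported here. Positions and exons came from GENCODE 44, snoRNA positions and promoters from RefSeq (GRCh38.p14), of which 14 snoRNA genes had no GENCODE entry. Counts of replicates differed by more than sampling noise in every pair (chi-square over degrees of freedom 1.98 to 7.80).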

Additional observations from a re-analysis of the deposited data

How the results depend on the processing

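Over all alternatives the log2 fold change of every member kept its direction, except SNHG14, which was -0.0046 with upper-quartile scaling (adjusted p = 0.943). Of 420 member values under 15 alternatives, 416 stayed on their side of the threshold, and the 4 that crossed it, of SNHG11 and SNHG30, all became calls. SNHG30 was called lower with upper-quartile scaling (log2 fold change -0.48, adjusted p = 0.0473). Between 21 and 24 members were lower in every fit and at stricter thresholds. The number of members higher was 0 to 1 when a sample was left out, with SNHG11 the only one, and 1 with scrambled replicate 2 and NFIC shRNA replicate 3 both left out (SNHG11, log2 fold change 0.41, adjusted p = 0.0134). The genes called in the 5 lists fell from 33 to 6 with a log2 fold change above 0.58 required. The share of all genes under that rule is not given beside it. The group's median lay between -0.86 and -0.77. Restricted to the 7 members tested without exon overlap (chosen after seeing the data), 5 were called, all 5 lower, with a median of -0.69. The median of the members with exon overlap was -0.88. TOP-like starts went from 24% to 14.3% at GENCODE starts.

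Replicate numbers are those of the sample descriptions, whereas the titles name the controls C1, C3 and C4. By description, same-numbered samples had correlations of deviations of 0.056, -0.086 and -0.045. Scrambled replicate 2 (C3) and NFIC shRNA replicate 3 (N3), which share a number by title, had a correlation of 0.145. Whether the samples are paired is not stated, and a block by title was not fitted. With a replicate block by description 23 members were lower, the same number as without it. Depth limits SNHG9, SNHG28, SNHG31 and most snoRNA rows. Overlapping genes were counted without a stated strand.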
